A study of Mus musculus with 9 samples.

Results

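The STAT family of signal transducers and activators of transcription is described here in splenic B cells of leukemic and wildtype mice through 6 members, Stat2, Stat3, Stat4, Stat5a, Stat5b and Stat6. They were found by gene symbol among the 22174 genes of the deposited table built on a mouse reference with added human sequences, and all 6 had enough reads to be among the 11247 genes tested. The family was chosen by the level of 1 member: Stat4 was selected because it was among the largest decreases in leukemia in these same libraries. Its values against wildtype are therefore given as a description with no test, whereas the rule did not use the values of the other 5 members.

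Bulk RNA-sequencing was carried out on splenic B cells of 9 mice, 3 per group and 1 library per mouse, and the numbers 1 to 3 given to the mice of a group only name them. All were C57/BL6NTac mice whose B cells had been enriched by removing other cells with a pan B cell kit, so leukemic and remaining normal B cells were sequenced together. Eµ-MTCP1 mice carried the human MTCP1 transgene (hMTCP1) and Eµ-TCL1 mice the human TCL1 transgene (hTCL1), each driven in B cells by the immunoglobulin mu enhancer, and the transgenic mice were age-matched and had a significant disease burden, while their ages are not stated for each mouse. The Eµ-MTCP1 mice came from 1 founder line, Z36, with its transgene in an intron of Fam168a, so effects of the transgene and of that line cannot be told apart. Wildtype mice carried no transgene and were littermates that tested negative for hMTCP1, and no separate littermates of the Eµ-TCL1 mice were sequenced.

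STAT proteins lie latent in the cytoplasm until a cytokine receptor is engaged. Janus kinases (JAKs) bound to the receptor then phosphorylate them, and they pair, enter the nucleus and bind DNA, while SOCS proteins and phosphatases end the signal. Each member serves its own receptors: Stat4 those of interleukin-12 in T and natural killer (NK) cells, Stat2 the type I interferon receptor, Stat3 those of interleukins 6, 10 and 21, Stat5a and Stat5b those of many growth factors and interleukins, and Stat6 that of interleukin-4, through which B cells switch to IgE and express CD23. STAT activity is set mainly by phosphorylation, which RNA levels do not measure.

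Between 6464089 and 8053017 reads per library were assigned to genes on this reference. Transgene transcripts matched the labels, with the authors' log2-like normalized value of human TCL1A at 14.9 to 15.6 in Eµ-TCL1 and 6.04 to 6.96 in the other mice, and that of human MTCP1 at 11.1 to 12.3 in Eµ-MTCP1 and 5.85 to 6.19 in the others. The summed level of 6 B cell markers lay between 6971 and 10600 CPM (reads of a gene relative to all reads of its library, scaled by the normalization factors of edgeR) in every library. Wildtype mouse 2 was sequenced on another lane than the other 8 mice, and values without it are within 1 lane. A total of 1054 genes differed from wildtype in Eµ-MTCP1 and 1029 in Eµ-TCL1 (edgeR quasi-likelihood test, p adjusted by Benjamini-Hochberg over all genes tested, threshold 0.05), with both comparisons resting on the same 3 wildtype mice.

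Several of these genes resemble or adjoin each other, which bears on how reads could be assigned. Stat5b, Stat5a and Stat3 form a cluster on chromosome 11 of the GRCm38 build (chr11:100780731-100850724, chr11:100859351-100885169 and chr11:100885098-100939540). Stat5a lies on the plus strand and the other two on the minus strand, 8626 bases separate Stat5b from Stat5a, and the 3′ ends of Stat5a and Stat3 overlap by 72 bases. Stat4 stands alone on the plus strand of chromosome 1 (chr1:51987148-52107189), while Stat6 (chr10:127642986-127660957) and Stat2 (chr10:128270559-128292849) are both on the plus strand of chromosome 10. The coding sequences of Stat5a (2379 bases) and Stat5b (2358 bases) were 88.8% identical, and 34.2% of the 31-base fragments of Stat5a, the length used here to look for shared stretches, were also in Stat5b. No other pair of members shared a single such fragment of coding sequence. The longest identical run covered 324 bases, from base 571 to base 894 of both, and its first 150 bases are shown, in lower case throughout, because reads from them fit both genes equally:
Stat5a and Stat5b, bases 571 to 720: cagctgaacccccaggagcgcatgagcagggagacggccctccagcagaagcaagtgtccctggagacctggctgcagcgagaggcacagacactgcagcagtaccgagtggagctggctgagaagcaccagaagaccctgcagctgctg
The ends of the coding sequences differ, and reads from them tell the genes apart. Capitals mark the bases that differ from the aligned base of the other gene or that the other gene lacks, 58 of the last 120 bases in Stat5a and 32 in Stat5b:
Stat5a, bases 2260 to 2379: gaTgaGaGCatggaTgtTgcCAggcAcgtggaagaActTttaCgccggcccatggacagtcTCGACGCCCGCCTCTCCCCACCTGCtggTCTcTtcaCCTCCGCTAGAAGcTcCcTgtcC
Stat5b, bases 2239 to 2358: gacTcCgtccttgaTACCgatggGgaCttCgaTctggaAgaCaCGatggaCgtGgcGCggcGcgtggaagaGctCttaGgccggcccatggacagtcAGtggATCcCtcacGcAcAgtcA

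Stat4, which carries the interleukin-12 signal, was expressed at a modest level in every wildtype mouse and was close to absent in both leukemias. The reads assigned to it numbered 226, 352 and 392 in wildtype mice 1, 2 and 3, against 1, 7 and 6 in Eµ-MTCP1 and 9, 14 and 21 in Eµ-TCL1. Scaled for depth, this was 34.1, 38.1 and 48.5 CPM in wildtype, 0.165, 0.991 and 0.982 CPM in Eµ-MTCP1 and 1.26, 1.72 and 2.90 CPM in Eµ-TCL1. All 6 leukemic mice lay far below the lowest wildtype mouse, and Eµ-MTCP1 mouse 1 lay under the level of 3 reads, which came to 0.325 to 0.494 CPM depending on the library. The fitted level was 54.5-fold lower in Eµ-MTCP1 (log2 fold change -5.77 ± 0.53, SE) and 20.4-fold lower in Eµ-TCL1 (-4.35 ± 0.47). Without wildtype mouse 2, that is within 1 lane, the log2 fold changes were -5.84 and -4.42.

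Among the decreases of all genes tested, Stat4 ranked 86th in Eµ-MTCP1, between the immunoglobulin segments Igkv1-135 (-5.83) and Ighv1-15 (-5.73), whose reads can be split among similar segments. In Eµ-TCL1 it ranked 192nd, between Ighv1-20 (-4.36) and the myeloid gene Ms4a3 (-4.34). In this bulk material, fewer cells that express Stat4 and less Stat4 RNA per cell cannot be told apart.

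**Figure D1:**
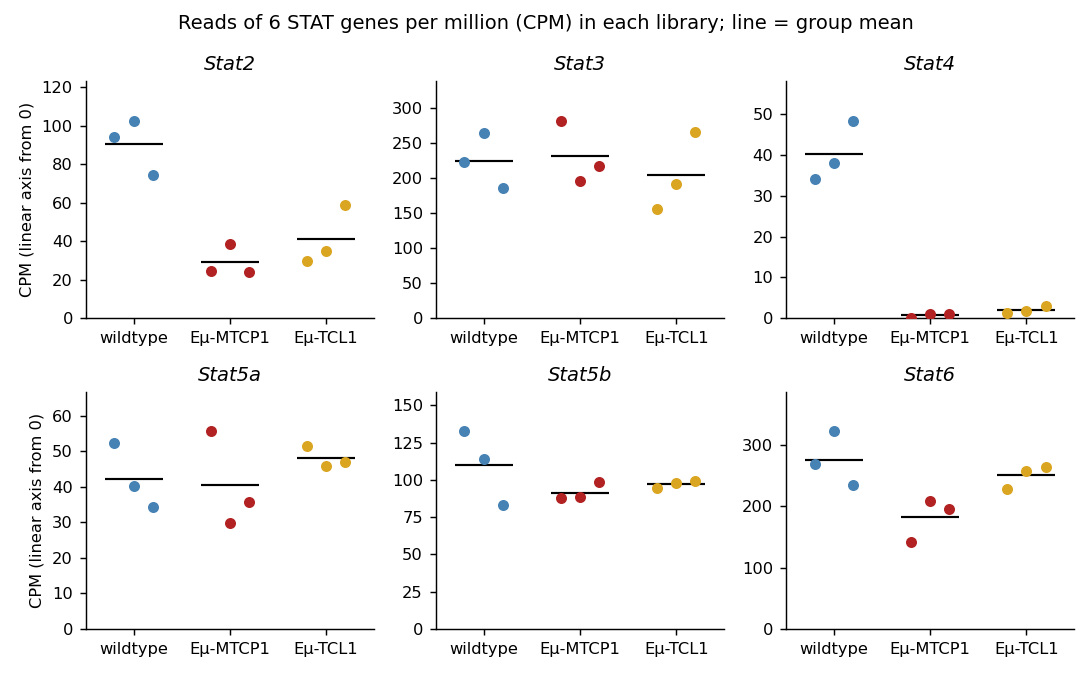
Levels of the 6 STAT members in each of the 9 libraries, in CPM on linear axes that start at 0, with 1 panel per gene, 1 point per mouse and a line at the group mean. Stat4 falls from 34.1 to 48.5 CPM in wildtype to at most 2.90 CPM in the leukemic mice, Stat2 is also below every wildtype mouse in all 6 of them, and the groups overlap for Stat3, Stat5a and Stat5b.

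Stat4 is best known from T and NK cells, so the markers of these cells were read beside it. The summed level of 8 NK cell markers was 77.9, 60.5 and 43.8 CPM in wildtype, 25.2, 19.7 and 23.9 CPM in Eµ-MTCP1, and 3.35, 16.8 and 124 CPM in Eµ-TCL1. These markers were thus lower than wildtype in every Eµ-MTCP1 mouse, where Klrd1, Klre1 and Gzmb were at or below 3 reads and where their part in the low Stat4 was not tested, but not in every Eµ-TCL1 mouse. Of the 8 markers, 4 were lower in Eµ-MTCP1 without overlap of the groups and 0 in Eµ-TCL1, where 15.3% and 16% of all genes were. Eµ-TCL1 mouse 3 had more NK marker RNA than any wildtype mouse, mainly Nkg7, a granule protein of cytotoxic cells, at 81.3 CPM, with 2.90 CPM of Stat4. Nkg7 and Prf1 exceeded every wildtype mouse there, and the other 6 markers did not. Within Eµ-TCL1 the 3 mice had the same order in Stat4 as in the NK sum. Within wildtype and within Eµ-MTCP1 the order in Stat4 was the reverse of that in the NK sum.

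T cell markers were read in the same way. The sum of 10 T cell markers was 333 to 366 CPM in wildtype, 440 to 897 CPM in Eµ-MTCP1 and 372 to 855 CPM in Eµ-TCL1, but nearly all of it was Cd2, an adhesion molecule that mouse B cells also express. The defining genes were scarce: Cd4, Cd8a and Thy1 did not exceed 3 reads in any wildtype mouse, nor did those genes, Cd3e and Lat in any Eµ-MTCP1 mouse. Cd3e, a chain of the T cell receptor complex, was at 1.66, 0.325 and 0.742 CPM in wildtype, 0, 0.142 and 0.164 CPM in Eµ-MTCP1, and 0.279, 0.490 and 7.04 CPM in Eµ-TCL1. Lat, an adaptor of that receptor, was at 1.30 to 3.17 CPM in wildtype, 0 to 0.327 CPM in Eµ-MTCP1 and 0.279 to 3.59 CPM in Eµ-TCL1. These 2 of the 10 markers were thus lower without overlap in Eµ-MTCP1, where Stat4 was lowest, and 1 marker, Cd2, was higher. In Eµ-TCL1 0 were lower and 2 were higher without overlap. Over all genes, 15.3% were lower and 14.7% higher without overlap in Eµ-MTCP1, and 16% and 16.6% in Eµ-TCL1. The 2 markers higher in Eµ-TCL1 were Cd3g and Cd8a. Cd3g was at 7.40, 8.21 and 20.2 CPM against 1.19 to 1.73 CPM in wildtype and 0.491 to 22.4 CPM in Eµ-MTCP1. Cd8a was at 0.279 to 2.49 CPM against 0 in every wildtype mouse. Cd3e, Lat, Cd3g and Cd8a were all highest among the Eµ-TCL1 mice in mouse 3, which also had the most Stat4 of the leukemic mice. The other groups did not share this order throughout. Eµ-MTCP1 mouse 1 had the most Cd3g of all mice (22.4 CPM) and the least Stat4. Wildtype mouse 1 had the most Cd3e and Lat of the wildtype mice but the least Stat4 of them. Wildtype mouse 3 had the most Cd3g and the most Stat4 of them. The part of T cells in the Stat4 result was not tested. Markers of dendritic cells (6 genes) summed to 21.6 to 49.0 CPM in wildtype, 3.79 to 18.6 CPM in Eµ-MTCP1 and 2.65 to 36.5 CPM in Eµ-TCL1, so they were lower in Eµ-MTCP1 as Stat4 was. Flt3, a growth factor receptor in that list, was lower without overlap in both leukemias (12.9 to 28.7 CPM in wildtype, 2.97 to 10.2 CPM in Eµ-MTCP1 and 0.559 to 3.87 CPM in Eµ-TCL1). Of the 6 genes, 2 (Flt3 and Itgax) were lower without overlap in Eµ-MTCP1 and 1 (Flt3) in Eµ-TCL1, and 0 were higher. Over all genes, 15.3% and 16% were lower in this way. Itgax was at 7.17 to 17.3 CPM in wildtype and 0.559 to 29.4 CPM in Eµ-TCL1. The part of dendritic cells was not tested either. The sums of myeloid markers (9 genes, 946 to 4024 CPM in wildtype, 861 to 2224 CPM in Eµ-MTCP1 and 366 to 1551 CPM in Eµ-TCL1) and of erythroid markers (4 genes, 19.5 to 101, 20.3 to 213 and 13.6 to 47.9 CPM) overlapped between the groups. Single myeloid markers did not all do so, with 1 lower and 2 higher without overlap in Eµ-MTCP1 and 1 lower and 1 higher in Eµ-TCL1, beside those shares. Cd68 was higher in both leukemias (36.0 to 68.1 CPM in wildtype, 171 to 322 CPM in Eµ-MTCP1 and 154 to 235 CPM in Eµ-TCL1), and Csf1r was lower in Eµ-MTCP1 (62.3 to 156 CPM in wildtype and 40.9 to 55.0 CPM).

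**Figure D2:**
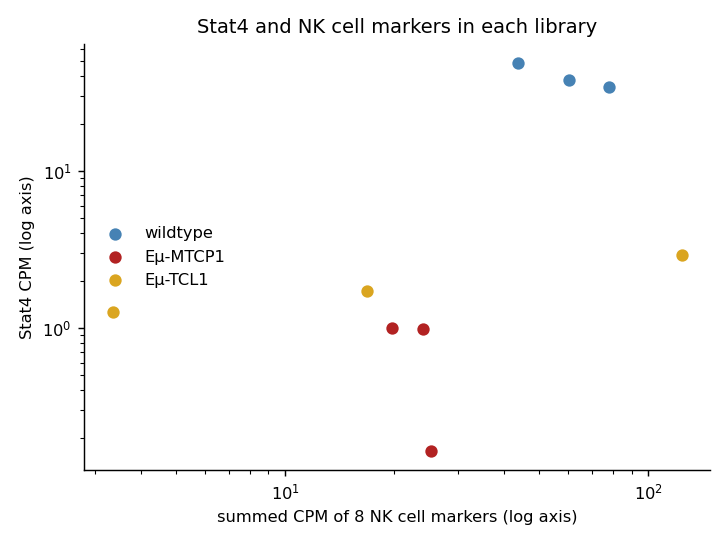
Stat4 level (vertical axis, CPM) against the summed level of 8 NK cell markers (horizontal axis, CPM), both on log axes, with 1 point per library coloured by group. The leukemic libraries span 3.35 to 124 CPM of NK markers, on both sides of the wildtype mice, and all lie at or below 2.90 CPM of Stat4.

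Stat2, which joins Irf9 in the complex that answers type I interferon, was the member that fell by the test in both leukemias. It was at 94.2, 103 and 74.3 CPM in wildtype mice 1, 2 and 3. In Eµ-MTCP1 it was at 24.6, 38.8 and 24.1 CPM, and in Eµ-TCL1 at 29.8, 34.8 and 58.7 CPM. Every leukemic mouse was below every wildtype mouse, and Eµ-TCL1 mouse 3 was the nearest to them. The decrease was 3.10-fold in Eµ-MTCP1 (log2 fold change -1.63 ± 0.30, 95% interval -2.29 to -0.97, adjusted p = 0.00749, edgeR) and 2.20-fold in Eµ-TCL1 (-1.14 ± 0.29, interval -1.79 to -0.49, adjusted p = 0.0364). Stat2 was thus 1 of 5 members called lower in each leukemia, where 3.94% of all genes were called lower in Eµ-MTCP1 and 4.08% in Eµ-TCL1, and 0 of 5 were called higher, where 5.43% and 5.07% of all genes were.

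The call for Stat2 in Eµ-MTCP1 was kept in all 9 fits that left out 1 library, including the fit within 1 lane (log2 fold change -1.56, adjusted p = 0.0313, range over the 9 fits 0.00366 to 0.0379). The call in Eµ-TCL1 rested on single libraries. It was lost without wildtype mouse 1 (adjusted p = 0.0858), wildtype mouse 2 (0.114, within 1 lane), wildtype mouse 3 (0.0639), Eµ-TCL1 mouse 1 (0.123) or Eµ-TCL1 mouse 2 (0.104), with log2 fold changes of -1.49 to -0.95 over all 9 such fits and adjusted p from 0.0137 to 0.123.

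Irf9, the DNA-binding partner of Stat2, was at 62.3 to 91.5 CPM in wildtype, 33.3 to 50.3 CPM in Eµ-MTCP1 and 40.9 to 102 CPM in Eµ-TCL1. It did not pass the test in either leukemia (log2 fold changes -0.85, adjusted p = 0.141, and -0.21, adjusted p = 0.741), although its Eµ-MTCP1 mice were all below wildtype. On full-length transcripts, including introns that are retained in processed RNA, 10.7% of the reads of Stat2 fell on retained-intron forms in wildtype, 16.3% in Eµ-MTCP1 and 13.9% in Eµ-TCL1 (group means, n = 3 each). Measured as TPM, which weights short forms more, the coding form ENSMUST00000085708.2 held 51.4% of Stat2 in wildtype, 37.2% in Eµ-MTCP1 and 46.7% in Eµ-TCL1, and the retained-intron forms the rest. The share of these forms thus depended on the scale.

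Stat6, the effector of interleukin-4, came nearest to the threshold among the remaining members. Its level was 270, 322 and 234 CPM in wildtype, 141, 209 and 195 CPM in Eµ-MTCP1, and 229, 258 and 264 CPM in Eµ-TCL1. The Eµ-MTCP1 mice were all below wildtype, by 1.51-fold (log2 fold change -0.60 ± 0.20, interval -1.05 to -0.15), but the difference missed the threshold (adjusted p = 0.0990). DESeq2 called it (adjusted p = 0.0327), as did scaling by library size alone (0.0420), within a range of 0.0327 to 0.241 over all alternatives tried. Eµ-TCL1 mice overlapped with wildtype (-0.14 ± 0.20, interval -0.59 to 0.31, adjusted p = 0.718). Counting Stat4, for which the family was chosen, with Stat2 and Stat6, 3 of 6 members were lower in Eµ-MTCP1 with no overlap of the groups, where 15.3% of all genes were, and 2 of 6 were in Eµ-TCL1, where 16% of all genes were. No member was higher without overlap in either leukemia, a pattern that 14.7% of all genes showed in Eµ-MTCP1 and 16.6% in Eµ-TCL1.

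Stat3 did not pass the test in either leukemia. It was at 224, 265 and 186 CPM in wildtype, 282, 196 and 218 CPM in Eµ-MTCP1, and 157, 192 and 266 CPM in Eµ-TCL1. The groups overlapped widely, with 1 Eµ-MTCP1 and 1 Eµ-TCL1 mouse at or above the highest wildtype mouse. The log2 fold change was 0.04 ± 0.24 in Eµ-MTCP1 (interval -0.49 to 0.58, adjusted p = 0.929) and -0.14 ± 0.24 in Eµ-TCL1 (interval -0.67 to 0.40, adjusted p = 0.774). The sign of the value in Eµ-MTCP1 turned when library size alone was used for scaling (-0.20).

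Stat5a and Stat5b, which transmit signals of interleukins 2, 5 and 7 among others, did not pass the test either. Stat5a was at 52.3, 40.3 and 34.2 CPM in wildtype, 55.7, 29.7 and 35.8 CPM in Eµ-MTCP1, and 51.4, 46.0 and 47.1 CPM in Eµ-TCL1. Stat5b was at 133, 114 and 83.4 CPM in wildtype, 87.8, 88.2 and 98.7 CPM in Eµ-MTCP1, and 94.7, 98.3 and 99.3 CPM in Eµ-TCL1. For both genes the leukemic mice lay within or near the wildtype range. The log2 fold changes of Stat5a were -0.06 ± 0.25 in Eµ-MTCP1 (interval -0.63 to 0.50, adjusted p = 0.893) and 0.19 ± 0.25 in Eµ-TCL1 (interval -0.37 to 0.75, adjusted p = 0.694). Those of Stat5b were -0.27 ± 0.19 (interval -0.69 to 0.16, adjusted p = 0.417) and -0.18 ± 0.19 (interval -0.60 to 0.24, adjusted p = 0.615). Since the genes share the stretch printed above, their reads were also summed before the test, which gave -0.21 ± 0.19 in Eµ-MTCP1 (adjusted p = 0.532) and -0.07 ± 0.19 in Eµ-TCL1 (adjusted p = 0.865).

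**Figure D3:**
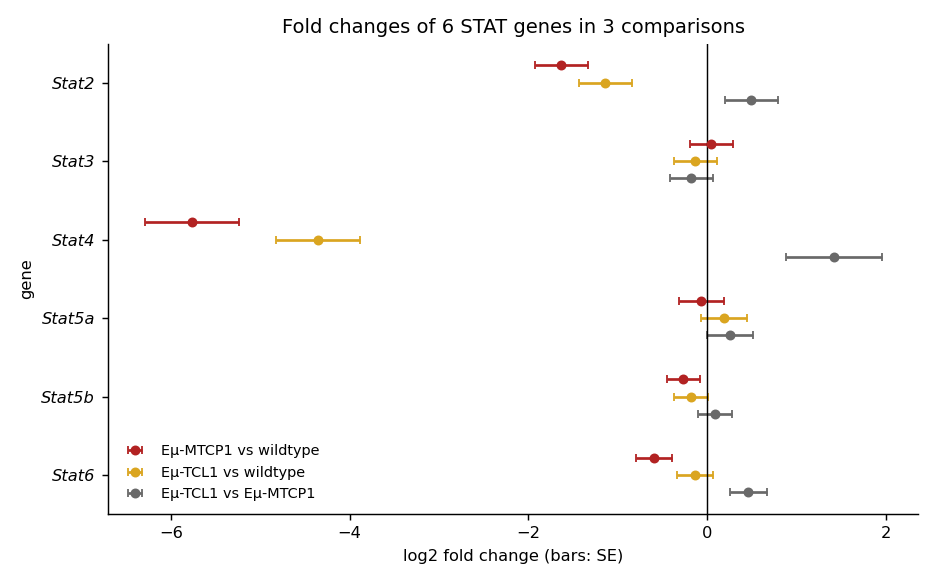
Log2 fold changes of the 6 STAT members in 3 comparisons, those of each leukemia with wildtype and that between the leukemias (Eµ-TCL1 over Eµ-MTCP1), with bars of 1 standard error from the edgeR fit (n = 3 mice per group). Stat4 lies at -5.77 and -4.35 and Stat2 at -1.63 and -1.14 against wildtype, while Stat3, Stat5a and Stat5b lie between -0.27 and 0.19.

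The median log2 fold change of the 6 members was -0.43 in Eµ-MTCP1 and -0.16 in Eµ-TCL1, beside -0.02 and -0.01 over all genes tested. The median of the members is set partly by Stat4, for which the family was chosen.

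When the leukemias were compared with each other, none of the 5 members other than Stat4 passed the test. For Stat4 no test is given, since it was chosen for its low values in these mice and passed the filter on low counts only through the wildtype libraries. All 3 Eµ-TCL1 mice (9, 14 and 21 reads) were above all 3 Eµ-MTCP1 mice (1, 7 and 6 reads), with a fitted log2 fold change of 1.42 ± 0.53. Stat6 was also higher in every Eµ-TCL1 mouse (0.46 ± 0.20, interval 0.01 to 0.91, unadjusted p = 0.0458, adjusted p = 0.764). Among all genes, 11.0% did not overlap between the leukemias in one direction or the other, and 0.0445% were called (5 genes with edgeR, while 724 had an unadjusted p under 0.05 and DESeq2 called 74). The values of Stat2 (0.49 ± 0.29, adjusted p = 0.823), Stat3 (-0.18 ± 0.24, 0.912), Stat5a (0.25 ± 0.25, 0.895) and Stat5b (0.09 ± 0.19, 0.956) had intervals that held 0.

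Levels of different genes can be set side by side only per length, as TPM, which divides reads by transcript length and scales every library to the same sum. In wildtype the order on coding sequences was Stat6 (68.2 ± 20.4 TPM, SD, n = 3), Stat3 (57.2 ± 16.1), Stat5b (30.3 ± 5.72), Stat2 (19.4 ± 4.63), Stat5a (10.2 to 15.2) and Stat4 (8.76 ± 1.74). The ranges of Stat6 and Stat3 overlapped, as did those of Stat5b and Stat2, and the other neighbours in this order did not. In Eµ-MTCP1 Stat3 (45.9 ± 8.72 TPM) and Stat6 (35.9 ± 6.79) led with overlapping ranges, followed by Stat5b (19.7 ± 1.35) and Stat5a (7.61 to 27.0), which also overlapped, then Stat2 (4.89 ± 1.41) and Stat4 (0.0281 to 0.178). In Eµ-TCL1 the order was Stat6 (50.3 ± 1.80), Stat3 (42.5 ± 11.2), Stat5b (22.5 ± 0.908), Stat5a (19.8 ± 5.03), Stat2 (7.25 ± 2.61) and Stat4 (0.357 ± 0.158), and the same neighbours overlapped as in Eµ-MTCP1. Stat2 thus stood above Stat5a in wildtype and below it in both leukemias. On the full-transcript reference Stat2 ranked next after Stat6 and Stat3 in all groups (41.7, 16.5 and 17.7 TPM), so its rank among the members depends on the reference. Stat4 made up 4.60% of the summed TPM of the 6 genes in wildtype, 0.106% in Eµ-MTCP1 and 0.245% in Eµ-TCL1.

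The TPM of Stat5a needs a separate reading. A 155-base transcript of the gene received 1.71 and 1.41 estimated reads in Eµ-MTCP1 mice 1 and 2 and 1.91 and 1.28 in Eµ-TCL1 mice 2 and 3, and 0 in every wildtype mouse. Because it is so short, these reads were worth 14.98, 10.3, 13.5 and 9.72 TPM, or 55.6, 62.5, 55.2 and 47.4% of the TPM of the whole gene. In these 4 mice a large part of the Stat5a TPM on this reference therefore rested on fewer than 2 reads. With transcript lengths as offsets in the fit, the log2 fold change of Stat5a became 0.79 in Eµ-MTCP1 (adjusted p = 0.258, edgeR) and 0.93 in Eµ-TCL1, and neither passed the test. On full transcripts the mean level was 14.5 TPM in wildtype, 10.1 TPM in Eµ-MTCP1 and 12.6 TPM in Eµ-TCL1.

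**Figure D4:**
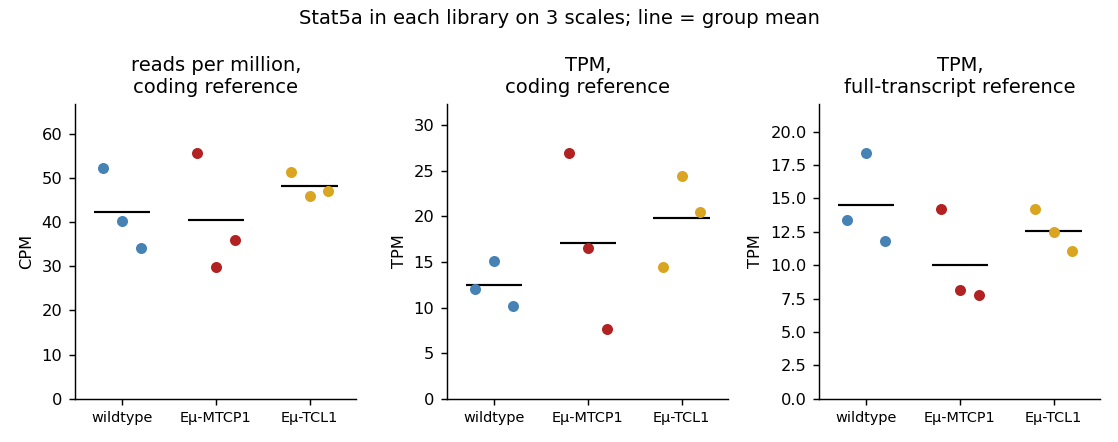
Stat5a in each library on 3 scales: CPM on the coding reference, TPM on the coding reference and TPM on the full-transcript reference, each on a linear axis from 0 with 1 point per mouse. Only the middle scale places leukemic mice (up to 27.0 TPM) well above the highest wildtype mouse (15.2 TPM).

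Stat3 has forms that differ near the end of the coding sequence, and the part of each was read from the same estimates. The form without 1 codon lacks the 3 bases in capitals, near the start of the region where the proteins diverge:
Stat3, long form, bases 2071 to 2133: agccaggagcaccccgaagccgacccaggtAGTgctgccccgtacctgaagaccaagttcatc
Stat3, form without the codon, bases 2071 to 2130: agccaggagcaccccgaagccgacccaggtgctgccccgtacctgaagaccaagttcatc
The short form, known as Stat3β, lacks the transactivation domain. It skips 50 bases, in capitals, and ends 21 bases later in another frame:
Stat3, long form, bases 2116 to 2216: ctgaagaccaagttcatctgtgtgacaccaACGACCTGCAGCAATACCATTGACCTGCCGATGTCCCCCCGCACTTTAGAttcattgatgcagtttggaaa
Stat3, short form, bases 2116 to 2166: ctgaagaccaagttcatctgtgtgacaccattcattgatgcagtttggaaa
On coding sequences the short form took 31.3, 51.7 and 38.5% of the TPM of Stat3 in wildtype, 38.8, 56.7 and 55.7% in Eµ-MTCP1 and 50.6, 44.4 and 52.0% in Eµ-TCL1. The groups overlapped. On full transcripts it took only 1.02 to 2.76% in any library, so the split between the forms depended on the reference.

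The genes whose level ran most like that of a member were found by Pearson's r of log2 CPM over the 9 libraries, among 9148 genes with a mean of at least 5 CPM. For Stat4 and Stat2, which separate wildtype from leukemia, r largely follows that separation, whereas the groups overlap for Stat3, Stat5a and Stat5b, and all r are given with no p. For Stat4 the closest were Ighv1-69 (r = 0.990), Ddb2 (0.982), Dgka (0.980), Ifi214 (0.978) and Ighv10-3 (0.976), and 46 genes had r over 0.95. Ddb2 recognizes DNA damage and Dgka is a lipid kinase. The list also holds 2 immunoglobulin variable segments. Among the closest to Stat2 was Rest (0.975), a repressor of neuronal genes. The closest to Stat6 were Phc2 (0.972) and Fut11 (0.963), to Stat3 Cd177 (0.940) and Tnfaip2 (0.935), to Stat5b Ccdc61 (0.923) and Zfp831 (0.913), and to Stat5a Ttf2 (0.908) and Git1 (0.896). The members that did not separate the groups thus had weaker closest genes than Stat4, Stat2 and Stat6.

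The genes that act before and after the STAT members were taken from 5 lists of 89 genes, of which 67 were tested. Of these, 6 were called higher and 10 lower in Eµ-MTCP1, and 6 higher and 8 lower in Eµ-TCL1 (edgeR, adjusted p under 0.05), where 5.43% of all genes were called higher and 3.94% lower in Eµ-MTCP1, and 5.07% and 4.08% in Eµ-TCL1. The number of calls depended on single mice. It fell from 16 to 10 in Eµ-MTCP1 without wildtype mouse 2 or wildtype mouse 3, and from 14 to 7 in Eµ-TCL1 without wildtype mouse 2 and to 8 without wildtype mouse 3 or Eµ-TCL1 mouse 1. Between the leukemias 0 of 67 were called with edgeR, and 4 with DESeq2 (Il12a, Il2rg, Usp18 and Oasl2, all higher in Eµ-TCL1). Of all 11247 genes tested, edgeR called 5 and DESeq2 called 74 between the leukemias. These lists, like the family, were chosen with earlier results of these data known.

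The kinases came first. All 4 JAK kinases were tested, with a median log2 fold change of -0.44 in Eµ-MTCP1 and -0.57 in Eµ-TCL1, beside -0.02 and -0.01 over all genes. Jak1, which serves most of the receptors above, was at 366 to 537 CPM in wildtype, 264 to 313 CPM in Eµ-MTCP1 and 236 to 253 CPM in Eµ-TCL1. It fell in Eµ-TCL1 (-0.87 ± 0.19, adjusted p = 0.0171), and in Eµ-MTCP1 it narrowly missed the threshold (-0.68 ± 0.19, adjusted p = 0.0502) with no overlap of the groups. That value passed in 7 of the other settings, among them DESeq2 (0.00463), and without wildtype mouse 1 (0.0375), within a range of 0.00245 to 0.160. The Eµ-TCL1 call was lost without wildtype mouse 2 or 3 or Eµ-TCL1 mouse 1 or 3 (adjusted p = 0.0553 to 0.0618). Tyk2, the partner kinase of the interleukin-12 receptor, and Jak3, that of the common γ chain, did not pass the test. Tyk2 had log2 fold changes of 0.00 ± 0.32 and 0.18 ± 0.32, and Jak3 -0.23 ± 0.29 and -0.52 ± 0.29.

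Among 33 receptor chains, 26 were tested. In Eµ-MTCP1 2 rose and 5 fell, and in Eµ-TCL1 3 rose and 4 fell, with medians of -0.14 and -0.21, where 5.43% of all genes rose and 3.94% fell in Eµ-MTCP1, and 5.07% and 4.08% in Eµ-TCL1. The receptor of interleukin-5, which acts through Stat5, rose in both leukemias. Il5ra, its specific chain, went from 10.2 to 19.4 CPM in wildtype to 48.8 to 106 CPM in Eµ-MTCP1 and 81.0 to 93.4 CPM in Eµ-TCL1 (2.65 ± 0.34, adjusted p = 0.00120, and 2.66 ± 0.34, adjusted p = 0.00107). Csf2rb, the β chain it shares with the receptors of interleukin-3 and GM-CSF, went from 47.1 to 87.3 CPM to 244 to 352 and 171 to 274 CPM (2.30 ± 0.29, adjusted p = 0.00113, and 1.79 ± 0.29, adjusted p = 0.00369). Both genes were called in all fits that left out 1 library.

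The receptor of interleukin-12, upstream of Stat4, had 1 chain with enough reads. Il12rb1 was at 4.94 to 9.21 CPM in wildtype and 16.9 to 34.1 CPM in Eµ-TCL1, where it rose (1.78 ± 0.35, adjusted p = 0.0106), and at 9.49 to 13.1 CPM in Eµ-MTCP1, where it did not pass the test (0.58 ± 0.35, adjusted p = 0.324). The difference between the leukemias did not pass either (1.19 ± 0.34, adjusted p = 0.541). Il12rb2, the chain that binds Stat4, was too low to test, at most 1.96 CPM in any library. So in Eµ-TCL1 Stat4 was low while 1 of its receptor chains was high.

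The receptor chains that fell in both leukemias serve interleukins 21 and 27 and interferon-γ. Il21r fell from 198 to 266 CPM in wildtype to 44.0 to 70.5 CPM in Eµ-MTCP1 (-2.12 ± 0.40, adjusted p = 0.00849) and 33.9 to 116 CPM in Eµ-TCL1 (-1.51 ± 0.39, adjusted p = 0.0364). Il27ra fell from 76.9 to 86.1 CPM to 15.5 to 29.3 CPM and 29.1 to 48.5 CPM (-1.75 ± 0.28, adjusted p = 0.00350, and -1.16 ± 0.27, adjusted p = 0.0247). In Eµ-TCL1 the call of Il21r was lost without any 1 of the 3 wildtype mice or Eµ-TCL1 mouse 1 (adjusted p = 0.0791 to 0.0919), and that of Il27ra without any 1 wildtype mouse or Eµ-TCL1 mouse 1 or 2 (0.0639 to 0.0949). Length offsets in edgeR also ended the call of Il21r there (0.0682). Ifngr1 and Ifngr2, the chains of the interferon-γ receptor, fell by 1.19 and 1.24 on the log2 scale in Eµ-MTCP1 (adjusted p = 0.00475 and 0.0133) and by 1.03 and 1.01 in Eµ-TCL1 (0.00933 and 0.0314). The call of Ifngr2 was lost in Eµ-MTCP1 without wildtype mouse 3 (0.0553), and in Eµ-TCL1 without any 1 wildtype mouse or Eµ-TCL1 mouse 1 or 2 (0.0621 to 0.115).

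Il2rg, the common γ chain of many interleukin receptors, fell in Eµ-MTCP1 from 559 to 723 CPM to 223 to 337 CPM (-1.19 ± 0.26, adjusted p = 0.0182), a call that was lost without wildtype mouse 2, that is within 1 lane (0.0546), or wildtype mouse 3 (0.0672). In Eµ-TCL1 it was at 421 to 733 CPM (-0.09 ± 0.26, adjusted p = 0.870), and the difference between the leukemias (1.10 ± 0.26) missed the threshold with edgeR (adjusted p = 0.359) and passed it with DESeq2 (0.00698), within a range of 0.00698 to 0.756 over all settings. The interleukin-4 receptor Il4ra, upstream of Stat6, was at 202 to 250 CPM in wildtype, 91.5 to 156 CPM in Eµ-MTCP1 and 106 to 187 CPM in Eµ-TCL1. Every leukemic mouse was below wildtype, and with edgeR neither comparison passed (-0.89 ± 0.25, adjusted p = 0.0551, and -0.61 ± 0.25, adjusted p = 0.164). In Eµ-MTCP1 the adjusted p of Il4ra lay close to the threshold and ranged from 0.00108 to 0.180 over the alternatives. It passed with DESeq2 (0.0130), with length offsets in DESeq2 (0.00108) and edgeR (0.0398), with library size alone (0.0189), with no filter (0.0484), with only the groups compared (0.0410), and without Eµ-MTCP1 mouse 1 (0.0337) or Eµ-TCL1 mouse 2 (0.0381). With length offsets the log2 fold change of Il4ra in Eµ-MTCP1 was -1.83 in DESeq2 and -1.82 in edgeR. The interleukin-10 receptor Il10ra, upstream of Stat3, was at 64.0 to 66.6, 50.7 to 62.9 and 20.7 to 65.9 CPM in the 3 groups and did not pass (adjusted p = 0.797 and 0.234). In Eµ-TCL1 it passed with DESeq2 and length offsets (0.0153) and without Eµ-TCL1 mouse 3 (log2 fold change -1.27, adjusted p = 0.0159), within a range of 0.0153 to 0.457.

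**Figure D5:**
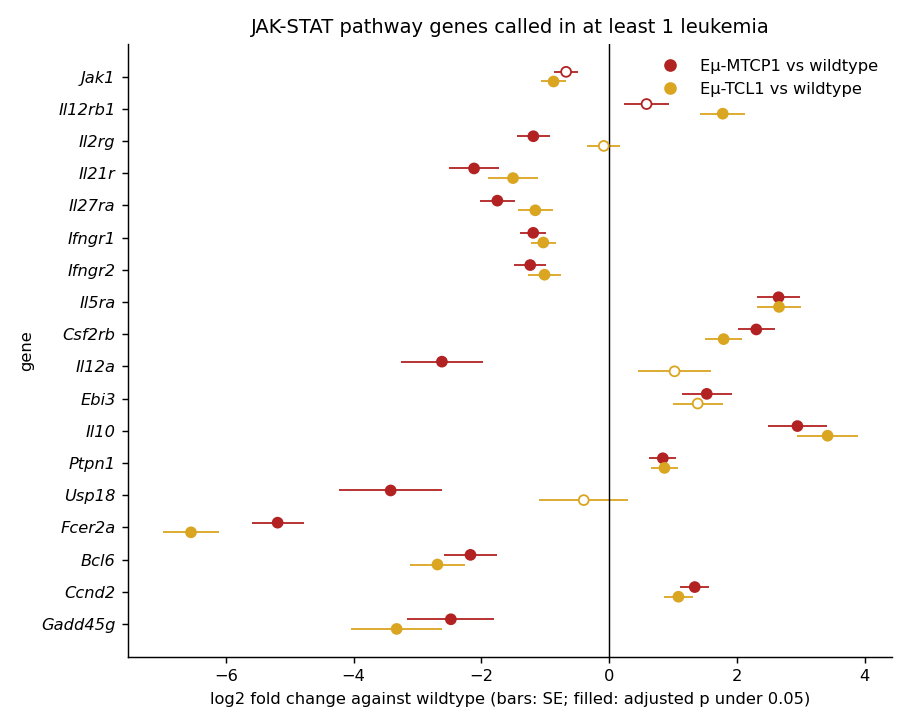
Log2 fold changes against wildtype of the 18 pathway genes called in at least 1 leukemia, with bars of 1 standard error from the edgeR fit (n = 3 mice per group), filled symbols for an adjusted p under 0.05 and open symbols for the others. Il10, Il5ra and Csf2rb lie far to the side of higher levels in both leukemias, and Fcer2a, Bcl6 and Gadd45g far to the lower side, with Fcer2a at -5.19 and -6.55.

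Of 14 ligands, 4 had enough reads to be tested. Il10, whose product signals through Stat3, was at 1.48 to 1.95 CPM in wildtype, 8.07 to 19.8 CPM in Eµ-MTCP1 and 11.6 to 26.4 CPM in Eµ-TCL1, and it rose in both (2.95 ± 0.47, adjusted p = 0.00343, and 3.42 ± 0.47, adjusted p = 0.00161). Ebi3, a subunit of interleukins 27 and 35, rose in Eµ-MTCP1 (1.53 ± 0.39, adjusted p = 0.0359) and narrowly missed the threshold in Eµ-TCL1 (1.38 ± 0.39, adjusted p = 0.0525), where it passed in 6 other settings, among them DESeq2 (0.00664), and without Eµ-MTCP1 mouse 2 (0.0124) or 3 (0.0151), within a range of 0.00346 to 0.171. Il12a, a subunit of interleukins 12 and 35, was at 17.5 to 24.7 CPM in wildtype. It fell to 2.97 to 3.60 CPM in Eµ-MTCP1 (-2.62 ± 0.64, adjusted p = 0.0285) and ranged from 8.33 to 75.1 CPM in Eµ-TCL1 (1.02 ± 0.57, adjusted p = 0.303, but 0.0219 without Eµ-TCL1 mouse 2). It was higher in every Eµ-TCL1 than in every Eµ-MTCP1 mouse (3.64 ± 0.65, unadjusted p = 0.000209), which missed the adjusted threshold with edgeR (adjusted p = 0.168) and passed it with DESeq2 (2.37e-06), with DESeq2 and length offsets (6.16e-05), with no filter on low counts (0.0346) and without Eµ-TCL1 mouse 2 (0.00168). Over all settings its adjusted p ran from 2.37e-06 to 0.474, so this call depended on the tool and on that mouse. In Eµ-MTCP1 the call of Ebi3 was lost without any 1 wildtype mouse or Eµ-MTCP1 mouse 1 or 3 (adjusted p = 0.0538 to 0.142), and that of Il12a without any 1 mouse of either group (0.0565 to 0.102). The call of Ebi3 was also lost with library size alone, with the authors' gene counts and with only the groups compared (0.0563 to 0.0615).

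Of 16 inhibitors, 14 were tested, and 1 rose in each leukemia, a share near that of all genes (5.43% and 5.07%). Ptpn1, a phosphatase that acts on JAK kinases, was at 183 to 256 CPM in wildtype, 320 to 495 CPM in Eµ-MTCP1 and 398 to 427 CPM in Eµ-TCL1 (0.84 ± 0.21, adjusted p = 0.0342, and 0.86 ± 0.21, adjusted p = 0.0302). Each call was lost in 7 of 9 fits that left out 1 library, with adjusted p up to 0.132 in Eµ-MTCP1 and 0.119 in Eµ-TCL1. With library size alone it was also lost in Eµ-MTCP1 (0.110) and Eµ-TCL1 (0.0717), and in Eµ-MTCP1 with only the groups compared (0.0619). The 2 fits that kept the call left out Eµ-MTCP1 mouse 2 or Eµ-TCL1 mouse 1 in the Eµ-MTCP1 comparison, and Eµ-MTCP1 mouse 1 or 2 in the Eµ-TCL1 comparison. The feedback inhibitors Socs1 (-0.62 ± 0.35 and -0.24 ± 0.35) and Socs3 (-0.74 ± 0.66 and -0.64 ± 0.65) did not pass, except Socs3 in Eµ-TCL1 without Eµ-TCL1 mouse 3 (-1.99, adjusted p = 0.0414), and Cish, a target and inhibitor of Stat5, was too low to test, at most 2.56 CPM in any library. The medians of the inhibitors were -0.36 and -0.19.

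Of 22 partners and targets, 19 were tested, with medians of -0.85 in Eµ-MTCP1 and -0.36 in Eµ-TCL1. In Eµ-MTCP1 1 rose and 4 fell, and in Eµ-TCL1 1 rose and 3 fell, and 1 of 19 is close to the 5.43% and 5.07% of all genes that rose, while 3.94% and 4.08% of all genes fell. Fcer2a, the gene of CD23 and a target of Stat6 as well as a marker of follicular B cells, went from 292 to 413 CPM in wildtype to 5.77 to 15.01 CPM in Eµ-MTCP1 and 2.10 to 4.66 CPM in Eµ-TCL1 (-5.19 ± 0.41, adjusted p = 0.000188, and -6.55 ± 0.44, adjusted p = 7.07e-05). For Stat6 itself the values were -0.60 and -0.14. Fcer2a was called in every fit that left out 1 library. Bcl6, the repressor that governs germinal center B cells, fell from 56.0 to 77.9 CPM to 10.7 to 18.4 CPM and 4.89 to 17.5 CPM (-2.17 ± 0.42, adjusted p = 0.00958, and -2.69 ± 0.43, adjusted p = 0.00347). Gadd45g, a stress-response gene, fell from 42.2 to 65.0 CPM to 2.13 to 21.8 CPM and 2.65 to 8.97 CPM (-2.48 ± 0.68, adjusted p = 0.0474, and -3.33 ± 0.71, adjusted p = 0.0157). Its call was lost in Eµ-MTCP1 without any 1 wildtype mouse, Eµ-MTCP1 mouse 2 or 3 or Eµ-TCL1 mouse 2 (0.0620 to 0.129) and with length offsets in edgeR (0.0621), and in Eµ-TCL1 without wildtype mouse 2 or Eµ-TCL1 mouse 1 or 2 (0.0533 to 0.0555). Without 1 library the log2 fold change of Gadd45g in Eµ-MTCP1 ran from -3.69 to -2.

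Usp18, which is induced by interferon and damps its receptor, was at 6.68 to 18.8 CPM in wildtype and 0.989 to 1.80 CPM in Eµ-MTCP1, where it fell (-3.42 ± 0.80, adjusted p = 0.0251). In Eµ-TCL1 it ranged from 1.54 to 18.1 CPM and did not pass (-0.40 ± 0.69, adjusted p = 0.768). The Eµ-MTCP1 call was lost without wildtype mouse 1 or 2 or any 1 Eµ-MTCP1 mouse (0.0611 to 0.0786), and also with the authors' gene counts (0.0632) and with length offsets in edgeR (0.100). The list holds 5 other interferon-induced genes, grouped here after their values were seen, and none of them passed the edgeR test in either leukemia. In Eµ-MTCP1 Ifit1 (log2 fold change -2.67, adjusted p = 0.147), Ifit3 (-1.72, 0.249), Mx1 (-1.13, 0.245) and Oasl2 (-2.23, 0.0833) lay below every wildtype mouse, as Usp18 did, and Isg15 (1.11, 0.194) lay above. Over all genes, 15.3% were lower and 14.7% higher without overlap in Eµ-MTCP1. DESeq2 called Ifit1 (0.0436) and Oasl2 (0.0157) there, and edgeR called Oasl2 with only the groups compared (0.0434) and without Eµ-TCL1 mouse 3 (0.0346), within ranges of 0.0436 to 0.293 and 0.0157 to 0.306 over all settings. In Eµ-TCL1 the groups overlapped for all 6. Ccnd2, the gene of cyclin D2 and a target of Stat5, rose by 1.34 ± 0.22 in Eµ-MTCP1 (adjusted p = 0.00472) and by 1.08 ± 0.22 in Eµ-TCL1 (adjusted p = 0.0131), and the Eµ-TCL1 call was lost without wildtype mouse 2 or 3 (0.0518 and 0.0579). Pim1, a kinase gene that Stat3 and Stat5 induce, was at 27.6 to 43.7 CPM in wildtype, 34.4 to 43.5 CPM in Eµ-MTCP1 and 32.2 to 57.8 CPM in Eµ-TCL1 and did not pass (adjusted p = 0.650 and 0.334).

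Neighbouring genes were read beside the members. Stat6 overlaps Nab2, a corepressor gene, by 40 bases. Nab2 rose in Eµ-TCL1 (1.07 ± 0.24, adjusted p = 0.0189) and did not pass in Eµ-MTCP1 (0.65 ± 0.24, adjusted p = 0.124), whereas the value of Stat6 was below 0 in both. Ghdc, beside Stat5b, had log2 fold changes of -0.01 and -0.05.

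The promoters of all 6 members were searched for 3 patterns on both strands, in windows of 250 bases before to 50 after each start (RefSeq, GRCm38). The STAT patterns TTCNNNGAA and TTCNNNNGAA were in 8.30% and 6.95% of all 32851 promoter windows, and the interferon-type pattern GAAANNGAAA was in 3.44%. The Stat2 window held 1 match to GAAANNGAAA (first base 222 before the start) and 1 to TTCNNNNGAA (210 before the start). This window and that of Stat4 are shown because these members had lower levels in both leukemias. The 2 matches do not overlap and are in capitals in the 250 bases before the start, where the first is read on the other strand:
Stat2, chr10:128270248-128270497, plus strand: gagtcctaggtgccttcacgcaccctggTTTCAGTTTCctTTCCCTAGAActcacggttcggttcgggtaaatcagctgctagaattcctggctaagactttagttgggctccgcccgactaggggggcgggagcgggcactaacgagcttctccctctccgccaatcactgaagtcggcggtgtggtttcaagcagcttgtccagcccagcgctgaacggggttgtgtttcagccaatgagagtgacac
Of the 2 starts of Stat4, the first had no match and the second had 1 match to GAAANNGAAA (first base 97 before the start), in capitals:
Stat4, second start, chr1:52007990-52008239, plus strand: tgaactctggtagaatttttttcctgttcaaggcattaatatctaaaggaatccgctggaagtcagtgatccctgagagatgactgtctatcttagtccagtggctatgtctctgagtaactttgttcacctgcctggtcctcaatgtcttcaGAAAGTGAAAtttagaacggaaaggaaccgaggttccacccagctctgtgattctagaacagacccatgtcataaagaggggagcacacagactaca
No window of Stat3, Stat5a, Stat5b or Stat6 held any of the 3 patterns. A match only describes the letters in these windows.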

How the data were processed

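Bulk RNA-sequencing libraries of 9 mice were grouped by their labels (3 wildtype, 3 Eµ-MTCP1, 3 Eµ-TCL1). The authors' estimated counts per transcript came from Salmon 1.0.0 on a mouse reference with human sequences, which held coding sequences, and on a full-transcript mouse reference. The submitters' processing notes also name CASAVA 1.8.2, HISAT2 2.0.6, featureCounts, DESeq2 and the GRCm38 build. TPM values were deposited beside these counts. The authors also deposited whole-number counts per gene, a filtered version of them, and normalized values on a log2-like scale. Their columns of fold changes and p-values were not used. Strandedness of the counting is not given in the sources used here, and kits with and without strand are named.

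Estimated counts on the reference with human sequences were summed per gene and rounded. Transcripts were joined to genes with GENCODE M21, while the study names release 23; 442 mouse transcripts without a match, at most 0.291% of the reads of a library, and 17 human transcripts were kept as features of their own. Low genes were filtered by edgeR, and TMM factors (0.912 to 1.18), a quasi-likelihood fit of all 9 libraries (edgeR 4.0.16, R 4.3.3) and Benjamini-Hochberg adjustment over 11247 genes followed. Log2 fold changes are given ± SE, obtained from the F statistic, with 95% intervals. P-values measure the spread between mice within these groups. The steps were tested on simulated data. Alternatives comprised DESeq2 1.42.0, other scalings, filters, references and length offsets, and leaving out each library.

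Members, pathway lists and tests were chosen with earlier results of these data known. All 6 members were named. Genes past the threshold were named up to 3 per list, direction and comparison by absolute log2 fold change, with 12 kinase, receptor, inhibitor and target genes named always, the nearest tested neighbours and the genes most like each member were added, and Il2rg, Irf9, the interferon-induced genes other than Usp18, and the marker genes were named beyond that rule after their values were seen. Intervals and the level of 3 reads cover what these libraries show and not reads lost in processing. Some items of these lists are not reported here.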

Additional observations from a re-analysis of the deposited data

How the results depend on the processing

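The decrease of Stat2 in Eµ-MTCP1 was called under all alternatives tried (12 other settings and 9 left-out libraries), with log2 fold changes of -1.93 to -1.23, and that in Eµ-TCL1 under all 12 other settings but in only 4 of 9 fits without 1 library (-1.49 to -0.95). Stat4 stayed between -6.13 and -5.36 in Eµ-MTCP1 and between -4.74 and -4.12 in Eµ-TCL1. Stat6 in Eµ-MTCP1 passed the threshold with library size alone (-0.84) and DESeq2 (-0.61). Values near 0 changed sign. Stat3 in Eµ-MTCP1 was -0.20 with library size alone and -0.15 to 0.15 without 1 library, and in Eµ-TCL1 -0.37 to 0.0239. Stat5a in Eµ-MTCP1 was 0.79 with length offsets in both edgeR and DESeq2 and -0.39 to 0.11 without 1 library, and in Eµ-TCL1 -0.0471 on the standard reference and -0.0521 with the authors' gene counts. The cause was not tested, except that the length offsets carry the 155-base transcript. Over all members, 202 of 209 values under other settings and 151 of 162 without 1 library kept direction and, where tested, call. Stat4 against wildtype has no call, and its value had to stay within the larger group SD of log2 CPM. The direct comparison of Stat4 was counted by its adjusted p, although no test of it is given above. Only Stat2 was called in the main fit, so for the other tested members keeping the call meant staying uncalled.

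Genes changed numbered 1657 and 1697 with DESeq2 and 1645 and 1699 with DESeq2 and length offsets, beside 1054 in Eµ-MTCP1 and 1029 in Eµ-TCL1, and 531 to 1019 and 520 to 1233 without 1 library. The lowest counts were without wildtype mouse 3 (531 and 520) and wildtype mouse 2 (563 and 553), then without Eµ-MTCP1 mouse 3 (603) and Eµ-TCL1 mouse 1 (662). Between the leukemias they numbered 74 and 104 with DESeq2 without and with offsets, 15 with no filter, 8 on the standard reference and 5 to 8 without 1 library, beside 5. DESeq2 called 25 and 18 pathway genes, beside 16 and 14. Library size alone moved the median of all genes to -0.26 in Eµ-MTCP1 and -0.15 in Eµ-TCL1, and the share of higher calls from 58.0 to 35.2% and from 55.4 to 43.3%, while leaving out immunoglobulin genes gave 67.8 and 66.0%. On the standard reference 12 of 18 mean TPM levels of members moved by more than 1 SD. The direct comparison of Stat4 gave no value when only the 2 leukemias were fitted, since it was filtered out as low. No paired analysis was possible because the labels give no replicate numbers shared between groups. The low reads of Stat4 (1 to 21 in leukemia) limit the precision of its fold changes.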

Other observations

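In a second deposited count table, which had passed a filter of the authors on coverage, Stat4 had 166, 219 and 316 reads in wildtype mice 1, 2 and 3 and 5, 12 and 11 in Eµ-TCL1. In Eµ-MTCP1 it had 7 reads in mouse 2 and an empty entry in mice 1 and 3, while the other 5 members had an entry in every library.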
